A study of Mus musculus with 8 samples.

Results

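The 2′-5′-oligoadenylate synthetase (OAS) family was followed in Neuro2a cells, a mouse neuroblastoma line, after transfection of plasmids for CRISPR activation directed at Scn2a. The members were the rows of the deposited count table named Oas1a, Oas1b, Oas1c, Oas1g, Oas2, Oas3, Oasl1 and Oasl2, which is 8 of 55367 genes. In CRISPR activation (CRISPRa) a nuclease-dead Cas9, here sadCas9, carries the activator VP64 to a site set by a single guide RNA (sgRNA). The 3 CRISPRa libraries with counts (replicates 2, 3 and 5) came from cells given the sgRNA plasmid and the sadCas9-VP64 plasmid, 750 ng each, per the labels. The 3 no-sgRNA libraries (replicates 2, 3 and 4) came from cells given sadCas9-VP64 alone, in an amount that the labels do not state, so both groups carried the activator. The presence of the guide, that of its plasmid and any difference in the amount of DNA cannot be told apart in this design. Nothing in the labels says that replicates were separate cultures, so the p-values measure the spread between these samples, which may be technical.

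OAS proteins bind double-stranded RNA and join ATP into 2′-5′-linked oligoadenylates (2-5A). These act as second messengers of the antiviral response. The genes are classical targets of interferon signalling, and the mouse carries an expanded Oas1 group in which several copies have lost synthetase activity.

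All 8 genes were higher with CRISPRa. Their summed level, in CPM (read counts brought to a common library size by edgeR's TMM method), was 599.6, 640.8 and 795.2 in CRISPRa replicates 2, 3 and 5, and 18.1, 19.6 and 18.2 in no-sgRNA replicates 2, 3 and 4. The group means were 678.5 ± 103.1 and 18.7 ± 0.852 CPM (SD, n = 3 each), 36.4-fold apart. Of the 8 members, 8 passed the low-count filter and 8 were called higher by edgeR's quasi-likelihood test (Benjamini-Hochberg adjusted p under 0.05), where 9.47% of the 15117 tested genes were called higher. All 8 calls were at least 2-fold, against 1.77% of tested genes. For each member every CRISPRa library lay above every control library, which held for 17.7% of tested genes. Oas1a, Oas1g, Oas2 and Oas3, with 0 to 16 counts in each control library, passed the filter only through their CRISPRa libraries. Their part in these counts was thus largely fixed in advance. The median log2 fold change of the members was 6.95, and that of all tested genes was -0.0071. In bulk RNA a rise in all cells and a larger rise in some of them cannot be told apart.

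**Figure D1:**
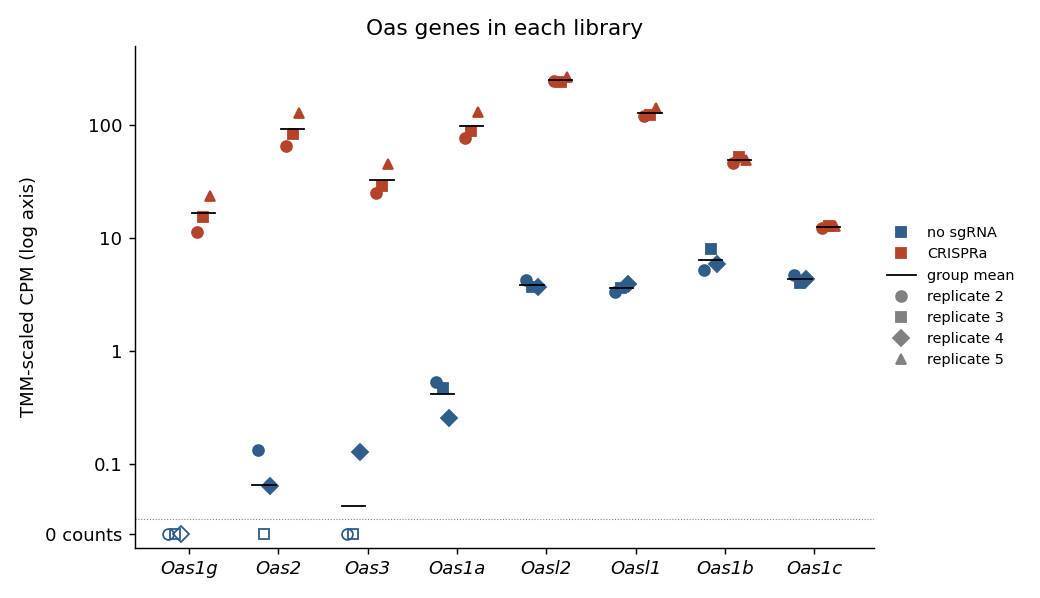
TMM-scaled CPM (log axis) of each Oas gene in every library, with blue symbols for no sgRNA, red for CRISPRa, marker shapes for replicate numbers and black bars for group means; open symbols stand for 0 counts. Oas1g was at 0 in all 3 control libraries and at 11.3 to 23.3 CPM with CRISPRa, while Oas1c moved from 4.34 to 12.5 CPM.

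Promoter sequences of 6 of the 8 members were found in the RefSeq table used here (build GRCm38.p6), which covers 250 bases before to 50 after each gene's start; Oas1b and Oas2 had no match there. The windows were searched on both strands for the core of the interferon-stimulated response element (GAAANNGAAA), known as the element through which type I interferon acts, and for the gamma-activated site (TTCNNNGAA), known for the response to interferon gamma. The first was found in 3.44% and the second in 8.30% of all 32851 promoters. The 4 members with the response element core are printed as the 150 bases before the start, 5′ to 3′ on the gene's own strand, with the core matches in capitals. In Oas1c the capitals hold the core on the opposite strand.
Oas1a, chr5:120907526-120907675, minus strand: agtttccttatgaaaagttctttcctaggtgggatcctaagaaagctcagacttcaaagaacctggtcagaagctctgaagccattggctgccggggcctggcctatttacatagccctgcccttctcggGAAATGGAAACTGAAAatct
Oas1g, chr5:120887614-120887763, minus strand: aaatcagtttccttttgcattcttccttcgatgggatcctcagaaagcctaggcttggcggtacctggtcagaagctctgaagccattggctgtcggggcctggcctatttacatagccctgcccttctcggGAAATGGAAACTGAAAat
Oas3, chr5:120777660-120777809, minus strand: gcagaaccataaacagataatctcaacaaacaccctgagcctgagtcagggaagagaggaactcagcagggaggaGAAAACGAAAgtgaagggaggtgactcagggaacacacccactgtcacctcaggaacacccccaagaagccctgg
Oas1c, chr5:120812515-120812664, minus strand: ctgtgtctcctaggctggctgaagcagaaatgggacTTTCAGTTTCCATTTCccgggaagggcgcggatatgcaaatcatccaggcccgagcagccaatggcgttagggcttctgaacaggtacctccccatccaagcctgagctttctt

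Oas1a and Oas1g both carried a pair of overlapping cores, GAAATGGAAA and GAAACTGAAA, within the last 20 bases before the start. Their 300-base windows were identical at 207 of 298 aligned positions (69.5%) with an offset of 2 bases. Oas3 held 1 core, GAAAACGAAA, at positions -75 to -66 from its start. The Oas1c pair lay at positions -114 to -99 from the Oas1c start. Oas1b begins in the opposite direction with 120 bases between both starts on GRCm38, so the same pair lay 7 to 22 bases before the Oas1b start. Neither Oasl1 nor Oasl2 held a core in the window searched. The gamma-activated site was found in Oas1a alone among the 6 matched members, at positions -98 to -90. These matches describe letters in a window and are not measured binding sites.

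Oas1a, Oas1g, Oas2 and Oas3 encode active synthetases, and in the controls these 4 were the least abundant members. Oas2, which makes 2-5A through a pair of OAS units, lies at chr5:120730333-120749853 (GRCm38, minus strand). It had 2228, 2694 and 4150 counts in CRISPRa replicates 2, 3 and 5, and 4, 0 and 2 counts in no-sgRNA replicates 2, 3 and 4. Mean levels were 91.7 ± 32.6 and 0.0648 ± 0.0656 CPM (SD, n = 3 each), so the gene was close to silent without the guide. The ratio of summed counts was 1395, with an exact 95% interval for counting error of 641 to 3803. The edgeR log2 fold change was 10.37 (SE 0.39, adjusted p = 2.966e-11). Here and below, the SE of an edgeR log2 fold change is its absolute value divided by the square root of the test's F statistic. edgeR itself does not report it. With controls near 0 counts it can be too small, and for Oas2 and Oas3 the counting interval of the ratio is wider. The Oas2 log2 fold change ranged from 9.83 without no-sgRNA replicate 3 to 11.29 without no-sgRNA replicate 2. In the latter case the remaining controls held 2 counts, so the size of the fold rests on single control libraries.

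Oas3, the longest of the synthetases with tandem OAS units, lies beside it at chr5:120753098-120777661 (minus strand). It had 852, 931 and 1465 counts with CRISPRa, and 0, 0 and 4 in the controls. The single control library with any count was replicate 4. The means were 32.8 ± 10.9 and 0.0421 ± 0.0730 CPM (SD, n = 3 each), a ratio of 749 (95% interval 292 to 2752) and edgeR gave 9.43 on the log2 scale (SE 0.43, adjusted p = 3.43e-10). Without no-sgRNA replicate 4 the controls were at 0, and Oas3 was at least 327-fold higher against 3 counts per library; the value fitted there, 13.03, depends on the prior count and is no bound. Without no-sgRNA replicate 2 the log2 fold change was 8.89.

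Oas1a (chr5:120896256-120907521, minus strand) had 2631, 2898 and 4223 counts with CRISPRa and 16, 14 and 8 in the controls. It was thus low but present in every control library. Its level went from 0.416 ± 0.144 to 98.4 ± 28.2 CPM (SD, n = 3 each), a ratio of 237 (95% interval 172 to 335). The edgeR log2 fold change was 7.88 (SE 0.26, adjusted p = 4.415e-12).

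Oas1g (chr5:120876142-120887613, minus strand) had 389, 496 and 755 counts with CRISPRa and 0 in all 3 control libraries. Against 3 counts per control library its level was at least 168-fold higher (16.6 ± 6.11 CPM with CRISPRa, SD, n = 3, edgeR adjusted p = 1.697e-08). Oas1a and Oas1g cannot be fully separated by short reads: 57.6% of the 50-base words in Oas1a transcripts of GENCODE M21 also occur in Oas1g, and 45.2% of those in Oas1g occur in Oas1a. How reads with several matches were counted is not stated in the sources used here. Per kilobase of exon, Oas1g stood at 0.134 ± 0.0130 of Oas1a in the CRISPRa libraries (SD, n = 3), between 0.119 and 0.144. All 3 controls gave 0, but they held only 16, 14 and 8 Oas1a counts. Their values are thus near the floor and do not show a different ratio. With the counts of the 4 Oas1 members added to 1 feature, the edgeR log2 fold change was 3.99 (SE 0.13, adjusted p = 5.471e-12). Of the control counts in this sum, 580 were from Oas1b, 399 from Oas1c, 38 from Oas1a and 0 from Oas1g. The value thus mostly reflects the control levels of Oas1b and Oas1c and does not check the folds of Oas1a and Oas1g. Nor does adding counts restore shared reads that were dropped or remove any counted more than once.

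Oas1b and Oas1c lack synthetase activity, and both were already expressed in the controls. Oas1b is the mouse flavivirus resistance gene, truncated in most laboratory strains; GENCODE lists it as a polymorphic pseudogene at chr5:120812635-120824163 (plus strand). It had 1581, 1681 and 1583 counts with CRISPRa and 159, 236 and 185 in the controls. Among the controls replicate 3 was the highest. Its level was 48.7 ± 2.80 against 6.33 ± 1.43 CPM (SD, n = 3 each), a ratio of 7.71 (95% interval 7.07 to 8.42), with an edgeR log2 fold change of 2.94 (SE 0.13, adjusted p = 3.43e-10).

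Oas1c (chr5:120800194-120812514, minus strand) had 423, 412 and 409 counts with CRISPRa and 144, 118 and 137 in the controls. Both groups were tight and far apart. The level rose from 4.34 ± 0.373 to 12.5 ± 0.195 CPM (SD, n = 3 each), a ratio of 2.88 (95% interval 2.57 to 3.23) and the lowest fold of the 8; the edgeR log2 fold change was 1.52 (SE 0.14, adjusted p = 3.55e-06). Of all tested genes, 184 had larger estimates than Oas1c on the log2 scale. Of its 50-base words 15.1% occur in other genes, and 9.44% of its exon bases overlap Gm43069. Within libraries the ratio of Oas1c to Oas1b per kilobase was 0.593 ± 0.169 in controls and 0.213 ± 0.00935 with CRISPRa (SD, n = 3 each).

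Oasl1 and Oasl2 encode OAS-like proteins with ubiquitin-like domains at the C terminus. Oasl2 retains synthetase activity, and Oasl1 has none and is known as a repressor of Irf7 translation. Oasl2 (chr5:114896936-114912234, plus strand) had the highest counts of the family, 8407, 7806 and 8675 with CRISPRa and 128, 109 and 117 in the controls. The means were 250.2 ± 15.1 and 3.85 ± 0.296 CPM (SD, n = 3 each), a ratio of 64.9 (95% interval 58.4 to 72.3), and the edgeR log2 fold change was 6.02 (SE 0.09, adjusted p = 2.075e-15).

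Oasl1 (chr5:114923240-114937915, plus strand) had 4147, 4001 and 4533 counts with CRISPRa, and 101, 106 and 124 in the controls. The means were 127.6 ± 10.6 and 3.60 ± 0.305 CPM (SD, n = 3 each), a ratio of 35.4 (95% interval 31.7 to 39.6), and the edgeR log2 fold change was 5.14 (SE 0.10, adjusted p = 2.773e-14). The OAS-like genes thus started from nearly equal control levels in CPM. Per kilobase Oasl2 stood at 0.442 ± 0.0687 of Oasl1 in the controls and at 0.804 ± 0.0237 with CRISPRa (SD, n = 3 each), without overlap between the groups. At most 0.521% of the 50-base words of Oas2, Oas3, Oasl1 and Oasl2 occur in another gene.

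For each member, permuting the libraries between the groups (exact, two-sided, on mean CPM) gave p = 0.1, the smallest that 3 against 3 libraries allow. The authors' deposited table is marked as made from 8 samples, as many as the labels list. It thus appears to share the libraries used here and is no independent check. In it all 8 members had a positive log2 fold change and an adjusted p under 0.05. Of the 13798 genes with an adjusted p, 14.8% did. The direction of that table is not stated; its sign was the same as here for 2798 of 2798 called genes outside the family and the gene lists. Its log2 fold changes ran from 1.53 for Oas1c to 10.64 for Oas1g.

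The order of the genes differed between the groups. In TPM, the length-scaled unit that divides counts by exon length and then by their sum in the library, the control order was Oas1b (11.1 ± 2.55), Oas1c (6.31 ± 0.647), Oasl1 (4.82 ± 0.258), Oasl2 (2.12 ± 0.216) and Oas1a (0.777 ± 0.287; all SD, n = 3). No neighbours among these 5 overlapped, and Oas2, Oas3 and Oas1g lay below at no more than 0.106 TPM in any library. With CRISPRa Oas1a (190 ± 54.9) and Oasl1 (178 ± 15.2) had the highest means with overlapping ranges, followed by Oasl2 (143 ± 8.90) and Oas1b (89.1 ± 5.18; all TPM, SD, n = 3). Oas1a, at 147 to 252 TPM, also overlapped Oasl2, at 137 to 153, while Oasl1 lay above Oasl2. Oas2 (75.1 ± 26.9) overlapped Oas1b, and Oas1g (25.8 ± 9.57), Oas1c (18.9 ± 0.322) and Oas3 (16.9 ± 5.64) overlapped each other (TPM, SD, n = 3). The order at the top depends on the length used: by the longest coding transcript, Oasl2 led with 292 TPM, ahead of Oasl1 with 213 and Oas1a with 189. It also depends on how reads shared by Oas1a and Oas1g were counted, which is not stated. As 57.6% of the 50-base words of Oas1a occur in Oas1g, the levels of both may be too low or too high.

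Expressed as shares of the summed counts per kilobase of the 8 genes, the inactive copies Oas1b and Oas1c made up 69.0% ± 2.61 of the family in the controls and 14.9% ± 2.13 with CRISPRa (SD, n = 3 each). Oas1a, Oas1g, Oas2 and Oas3 made up 3.36% ± 1.08 and 41.1% ± 5.96, in the same order. The OAS-like genes, of which Oasl2 also retains synthetase activity, made up 27.6% ± 2.57 and 44.0% ± 4.04. These shares also depend on how reads shared by Oas1a and Oas1g were counted, which is not stated. They depend on the length used as well. With CRISPRa, Oasl2 made up 19.6% per kilobase and 37.2% by plain counts, and Oas1a 25.5% and 14.3%. Since these shares add to 100%, a fall in share is no fall in level: Oas1b fell from 43.8% to 12.3% of the family while its CPM rose.

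**Figure D2:**
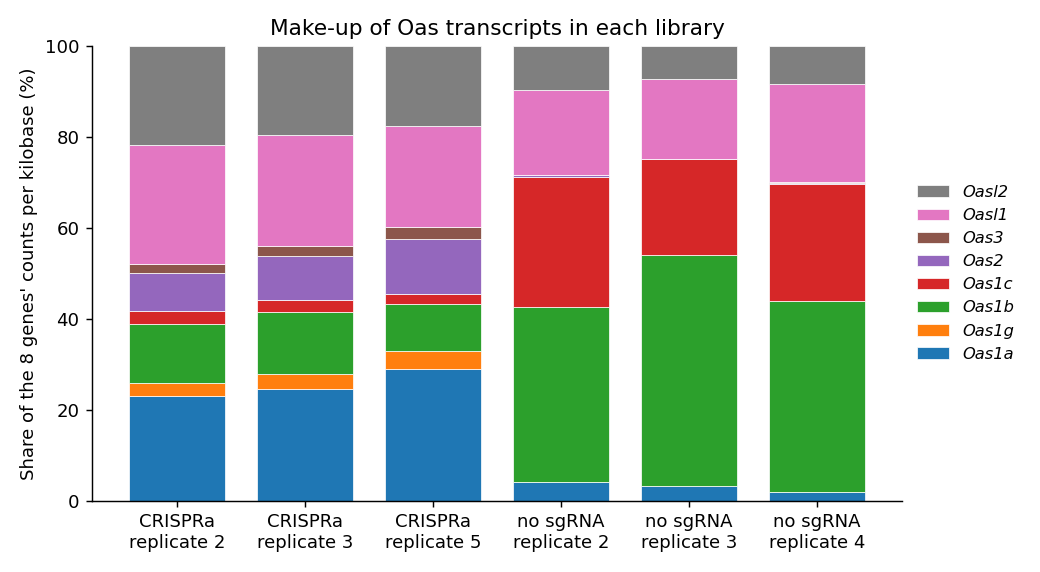
Stacked bars give each Oas gene's share (%) of the 8 genes' counts per kilobase of exon in every library, with 1 bar per library. Oas1b and Oas1c fill most of the control bars (69.0% on average), and Oas1a, Oasl1 and Oasl2 most of the CRISPRa bars (25.5%, 24.4% and 19.6%).

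Among the CRISPRa libraries, replicate 5 stood furthest above replicates 2 and 3 for the members Oas1a, Oas1g, Oas2 and Oas3. Oasl2, which also retains synthetase activity, was not among them. The level in replicate 5 over that in replicates 2 and 3 pooled was 1.76 for Oas1g (exact 95% counting interval 1.60 to 1.95), 1.74 for Oas2 (1.67 to 1.82), 1.70 for Oas3 (1.59 to 1.82) and 1.58 for Oas1a (1.52 to 1.64). It was 1.15 for Oasl1, 1.11 for Oasl2, 1.01 for Oas1c and 1.00 for Oas1b. Over the 9461 tested genes with at least 10 CPM in CRISPRa the median ratio was 1.01, with 0.801 and 1.22 as the 5th and 95th percentiles, and 99.8% to 99.9% of these genes lay below Oas1a, Oas3, Oas2 and Oas1g. The same 4 genes were also higher in replicate 3 than in replicate 2, by 1.35 for Oas1g, 1.28 for Oas2, 1.16 for Oas1a and 1.15 for Oas3. Without replicate 5 the ratios to the controls were 1123 for Oas2, 610 for Oas3, 199 for Oas1a and at least 135 for Oas1g, and 8 of 8 members were still called. What sets replicate 5 apart for these genes was not tested.

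**Figure D3:**
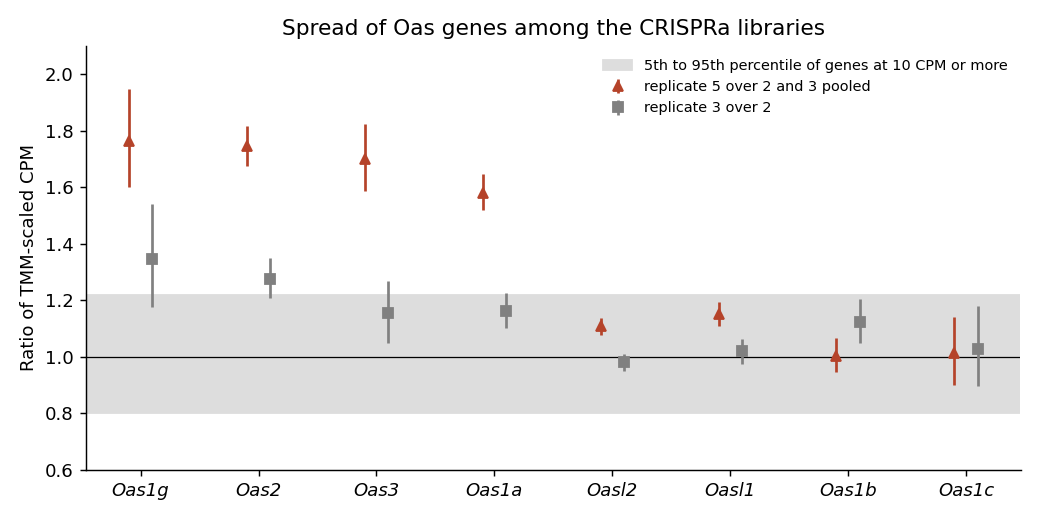
Ratios of CPM between CRISPRa libraries for each Oas gene: red triangles for replicate 5 over replicates 2 and 3 pooled, grey squares for replicate 3 over replicate 2, bars for exact 95% counting intervals, and a grey band for the 5th to 95th percentile (0.801 to 1.22) of replicate 5 ratios over genes at 10 CPM or more. Oas1g, Oas2, Oas3 and Oas1a lie above the band at 1.58 to 1.76, and the other 4 genes within it.

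The Oas1, Oas2 and Oas3 genes lie in 1 cluster of 10 genes over 191 kb of chromosome 5, and Oasl2 and Oasl1 lie together in 41.0 kb, 5.79 Mb away. The cluster holds 4 further Oas1 genes. Oas1h, next to Oas1g, had 62, 25 and 39 counts with CRISPRa and 0 in every control, at least 12.9-fold higher against 3 counts per library (edgeR adjusted p = 1.854e-04). Its level in replicate 5 over replicates 2 and 3 was 0.927 (95% interval 0.619 to 1.37), where Oas1g stood at 1.76. Oas1d had 10, 0 and 4 counts with CRISPRa and 0 in the controls, Oas1e had 4, 10 and 3 against 2, 0 and 0, and Oas1f had none in any library; these 3 were too low to be tested. The RefSeq windows of Oas1f and Oas1h held no response element core.

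**Figure D4:**
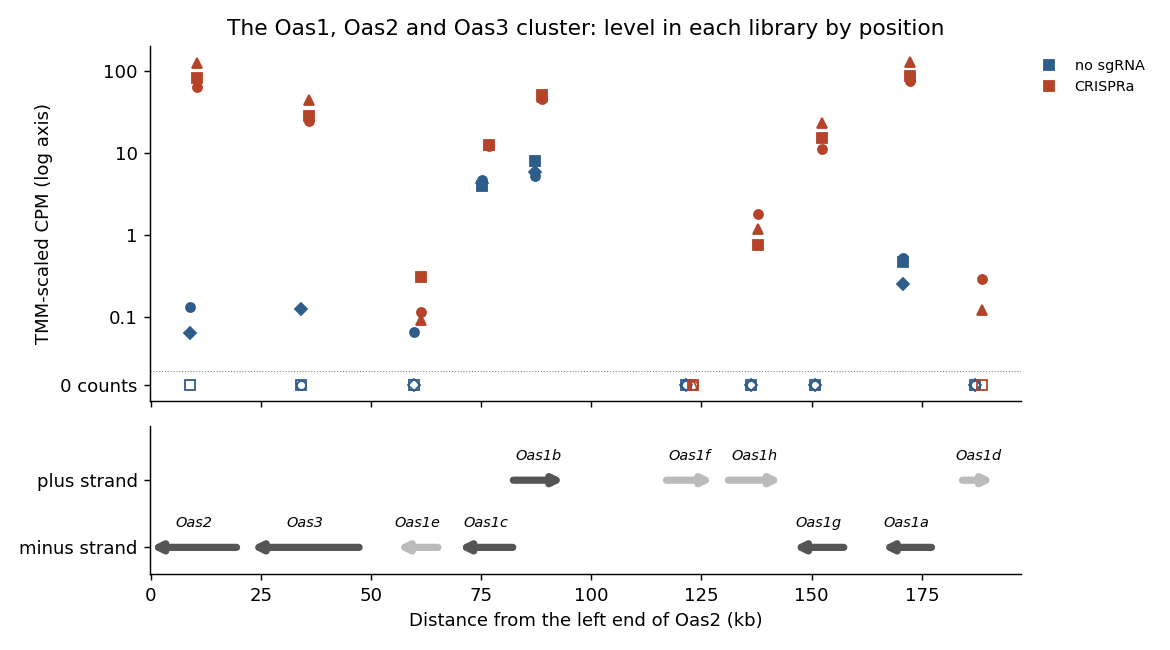
Upper panel: TMM-scaled CPM (log axis) of the 10 genes of the cluster in each library, red for CRISPRa and blue for no sgRNA, circles for replicate 2, squares for 3, diamonds for 4 and triangles for 5, with open symbols at 0 counts, placed at the gene's position in kb from the left end of Oas2. Lower panel: arrows give the direction of each gene, dark for the 6 members and light for the relatives; Oas1b and Oas1c, in the middle, are the members with the highest control levels (6.33 and 4.34 CPM).

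Of 21 other protein-coding genes within 200 kb of a member 17 were tested, 2 were called higher and 1 lower, with a median log2 fold change of -0.052. Over all tested genes 9.47% were called higher and 9.25% lower, so these counts are near the background. Dtx1, a Notch pathway regulator, had 337, 334 and 281 counts with CRISPRa against 178, 206 and 208 (edgeR log2 fold change 0.57, SE 0.15, adjusted p = 0.0148). Rasal1, a Ras GTPase-activating protein, had 36, 21 and 29 against 8, 4 and 0 (2.68 on the log2 scale, SE 0.72, edgeR adjusted p = 0.0168). Unc119b fell by 0.34 on the log2 scale (SE 0.08, edgeR adjusted p = 0.00694). Both genes that rose lie on the Oas2 side of the cluster, and Unc119b lies beyond the Oasl1 side of the OAS-like pair.

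Of the genes for inhibition and turnover of 2-5A, 0 of 3 tested were called by edgeR, DESeq2 or limma-voom; 2 of 3, Pde12 and Akap7, had an unadjusted p under 0.05 in edgeR. Abce1, known as an inhibitor of the 2-5A pathway, stood at 362 ± 9.27 and 361 ± 7.88 CPM (SD, n = 3 each; log2 fold change 0.0026, SE 0.059, edgeR adjusted p = 0.981). Pde12 and Akap7, phosphodiesterases that degrade 2-5A, stood at -0.17 (SE 0.08, edgeR adjusted p = 0.159) and 0.19 on the log2 scale (SE 0.09, adjusted p = 0.149).

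Among 53 genes listed around the family (relatives, turnover of 2-5A, other double-stranded RNA sensors and interferon signalling), 32 had a count and 29 were tested. Of these, 15 were called higher and 1 lower, against 9.47% and 9.25% of all tested genes, and their median log2 fold change was 0.49. Because the lists were chosen with results of these libraries known, the counts are a description.

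Of 7 further genes of double-stranded RNA sensing, 6 were called higher. Ifih1 (MDA5) had 1209, 1216 and 1604 counts with CRISPRa against 32, 60 and 16, which edgeR put at 5.10 on the log2 scale (SE 0.27, adjusted p = 2.129e-09). Ddx58 (RIG-I) rose from 9.76 ± 0.803 to 126.6 ± 5.93 CPM (SD, n = 3 each), Dhx58 (LGP2) from 4.42 ± 0.502 to 43.4 ± 4.28, and the kinase Eif2ak2 (PKR), the other classical RNA-activated antiviral enzyme, from 44.4 ± 1.29 to 188 ± 5.20. Tlr3, the endosomal sensor, rose by 2.33 and Adar, the RNA-editing deaminase, by 1.04 on the log2 scale. Mavs, the adaptor of Ifih1 and Ddx58, fell by 0.33 on the log2 scale (SE 0.08, edgeR adjusted p = 0.0113). The log2 fold changes of all 7 lay below those of Oas2 and Oas3, whose controls held 0 to 4 counts.

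Of 20 interferon genes listed, 19, among them Ifnb1 and the listed Ifna genes, had 0 counts in every library, and Ifnz had 0, 8 and 0 counts with CRISPRa against 2, 0 and 0. Among 6 receptor genes Ifnlr1 was at 0, and of the 5 tested (Ifnar1, Ifnar2, Ifngr1, Ifngr2 and Il10rb) 0 were called by edgeR, DESeq2 or limma-voom at an adjusted p under 0.05, and 0 had an unadjusted p under 0.05 in edgeR. Ifnar1 stood at 81.5 ± 5.07 and 81.0 ± 1.91 CPM (SD, n = 3 each). Of the 5 listed genes that carry the signal on from interferon receptors, 3 were called higher. Irf9 went from 23.3 ± 0.599 to 130 ± 5.19 and Stat2 from 31.0 ± 1.90 to 124 ± 15.4 CPM (SD, n = 3 each), and Jak2 rose by 0.49 on the log2 scale. The kinases Jak1 and Tyk2 had log2 fold changes of 0.10 and 0.11 and were not called.

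Of 5 interferon regulatory factors 3 were called higher. Irf7, whose translation Oasl1 is known to repress, had 4186, 4819 and 5412 counts with CRISPRa against 60, 66 and 62 (log2 fold change 6.15, SE 0.14, edgeR adjusted p = 8.577e-14). Irf1 rose by 1.29 and Irf5 by 0.72 on the log2 scale, while Irf2 and Irf3 had log2 fold changes of 0.016 and -0.18 and were not called. Of 3 inhibitors of the signal, Usp18 rose by 7.17 (0.824 ± 0.361 to 118 ± 16.3 CPM, SD, n = 3 each) and Socs1 by 1.25 on the log2 scale, and Socs3, at 0.28, was not called. In replicate 5 over replicates 2 and 3, Ifih1 stood at 1.37, Usp18 at 1.25, Irf7 at 1.24, Stat2 at 1.23 and Jak2 at 1.22. These listed genes lay below Oas1a, Oas1g, Oas2 and Oas3. Tlr3 stood at 1.17, Irf1 at 1.10, Adar at 1.08, Dhx58 at 1.06 and Irf9 at 1.05. Eif2ak2 stood at 0.985, Socs1 at 0.951 and Ddx58 at 0.922. The genes from Tlr3 to Ddx58 lay within the 5th to 95th percentile of the tested genes with at least 10 CPM (0.801 to 1.22). Irf5 was lower in replicate 5, at 0.687 (95% interval 0.590 to 0.797).

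**Figure D5:**
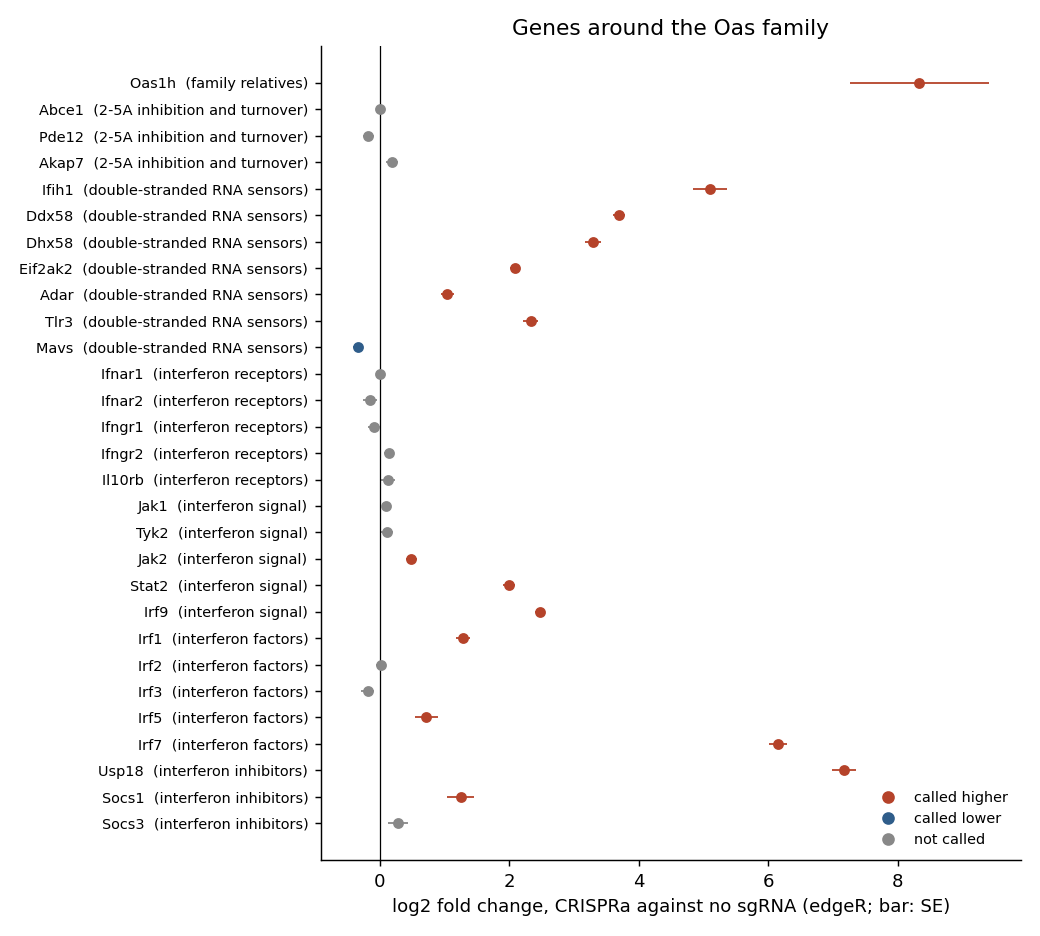
edgeR log2 fold change (CRISPRa against no sgRNA, bars for SE) of the 29 tested genes listed around the Oas family, red where called higher, blue where called lower and grey where not called. Most of the sensors, Stat2, Irf9, Irf7 and Usp18 lie to the right, the receptors and the 2-5A turnover genes near 0, and Mavs at -0.33; the Oas1h estimate rests on controls at 0 counts and depends on the prior count of the fit.

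The 5 genes outside the family and the lists with the profile closest to the members' mean over the 6 libraries, by Euclidean distance of centred log2 CPM, were Rsad2 (0.417), Tgtp2 (0.647), Apol9b (0.690), Rtp4 (0.743) and Gbp7 (0.763). Rsad2, which encodes the antiviral radical SAM enzyme viperin, had 7258, 6514 and 8169 counts with CRISPRa and 92, 64 and 112 in the controls. Tgtp2, an interferon-inducible GTPase, had 84, 103 and 180 against 0 in each control. Among the CRISPRa libraries all 5 genes were highest in replicate 5. Tgtp2 stood at 2.44, 3.16 and 5.55 CPM in replicates 2, 3 and 5, a larger relative rise than in any Oas member. Gbp7 stood at 30.4, 28.4 and 41.1 CPM. An excess in replicate 5 was thus also present outside the family. These genes were chosen by likeness over the same libraries, replicate 5 included, so their excess there was partly fixed by the choice. With 6 libraries in 2 groups, likeness mostly reflects the difference between the groups.

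Library totals ran from 29739422 to 34248514 counts. Between libraries of the same group the SD of the log2 CPM difference over tested genes was 0.256 to 0.330. Scn2a, the target of the guide, had 267, 279 and 231 counts with CRISPRa and 190, 193 and 130 without (log2 fold change 0.48, SE 0.19, edgeR adjusted p = 0.0899), in the direction of the labels but short of the threshold. All 10 sympathoadrenal neuroblastoma markers were present, with summed levels of 1433 to 1657 CPM with CRISPRa and 1681 to 1832 in the controls. Phox2a and Hand2 were called lower (log2 fold changes -0.69 and -0.43) and Chga and Tubb3 higher (0.33 and 0.20). Of 8 macrophage or microglia markers, Cx3cr1 and Itgam were at 0. Their summed level was 1.51 to 2.25 CPM with CRISPRa and 0.853 to 1.99 in the controls, against 599.6 to 795.2 CPM for the Oas genes with CRISPRa. Cd68 alone was tested (log2 fold change 0.32, edgeR adjusted p = 0.652). Of those too low to be tested, Tyrobp had 11, 8 and 15 counts with CRISPRa against 0, 6 and 1, without overlap. Aif1 went the other way, with 3, 0 and 3 against 14, 0 and 4. Fibroblast markers were 14.6 to 21.4 against 28.7 to 32.4 CPM, with Col1a2 and Pdgfra called lower (2 of 4 tested). Endothelial markers were 7.43 to 10.9 against 9.56 to 13.3 CPM, with Cdh5 called higher (1 of 2 tested; Kdr at 0), and of the astrocyte markers (0.678 to 1.07 against 0.977 to 1.54 CPM, Slc1a3 at 0) Gfap alone was tested (log2 fold change -0.49, edgeR adjusted p = 0.436). The part of these differences in the Oas result was not tested.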

How the data were processed

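The authors deposited a table of unnormalised counts per gene that covers 6 of the 8 labelled samples; counts of the remaining 2 were not analysed here. Per the submitters' processing notes the tools were STAR 2.5.1b, featureCounts and DESeq2 in R 4.1.2, with build mm10; the annotation, the strand setting and how multi-mapped reads were handled are not given in the sources used here. A second deposited table holds the authors' own comparison, per the file headers: a mean normalised signal, log2 fold changes with SE, a Wald score, p-values and adjusted p-values; from it only log2 fold changes and adjusted p-values were used.

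Counts were tested as deposited with edgeR 4.0.16 (glmQLFit, glmQLFTest, filterByExpr defaults, TMM) in R 4.3.3 and adjusted by Benjamini-Hochberg over 15117 genes; the procedure was tested on simulated data. Alternatives included DESeq2 1.42.0 and limma-voom 3.58.1. TPM used the exon lengths of the count table. Gene coordinates are those of the count table (GRCm38), and 52900 of its 55367 genes had the same span in GENCODE M21.

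Named genes were all members, every listed gene with a count, called markers and neighbours, and the 5 genes most alike in profile. Cd68, Tyrobp, Aif1 and Gfap were named after their values were seen. Some genes of the planned lists are not reported here and were left out of the list counts. Members and lists were chosen with earlier results of these data known. Of counts from 1 to 9, 72.6% were even (53.4% of counts of 100 or more), so counting intervals, which assume independent counts and cover counting error only, may be too narrow. Where all controls were at 0, folds are lower bounds against 3 counts per library.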

Additional observations from a re-analysis of the deposited data

How the results depend on the processing

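All 8 members were called higher under every alternative that keeps them as separate features (other scalings and filters, DESeq2, limma-voom, a stricter threshold of 0.01 and each library left out), and the calls over the listed genes ranged from 15 to 18 against 16. A fit with the replicate block could use the 4 libraries of replicates 2 and 3 only; it called 8 members and 18 listed genes, as did the same 4 libraries unblocked. Equal replicate numbers were not taken as pairs in the main fit. The replicate 2 minus 3 differences of both groups correlated at 0.0045 across genes. As only that difference could be compared, the value cannot decide whether samples were paired. Among single genes, Irf5 lost its call without CRISPRa replicate 3 (log2 fold change 0.61, adjusted p = 0.0501), and Akap7 and Jak1 passed on the 4 libraries with the block (0.28 and 0.19) and without it (0.27 and 0.19). Length mattered for the make-up of the family with CRISPRa. As plain shares of counts, Oas1a made up 14.3%, Oas1b 7.28%, Oas1c 1.87%, Oas1g 2.39%, Oas2 13.3%, Oas3 4.75%, Oasl1 18.9% and Oasl2 37.2%. By the longest coding transcript, a choice made after seeing the data, Oas1a made up 19.7%, Oas1b 10.3%, Oas1c 2.11% and Oasl2 30.9%. The summed CRISPRa level ranged from 620.2 to 718.0 CPM with 1 library left out. Depth limits statements on Oas1d, Oas1e, Oas1f and the interferon genes to the 3-count limit.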
